A study of Mus musculus with 6 samples.

Results

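The genes examined here were the p53 regulators Mdm2 and Mdm4 and the p53 target genes Ccng1, Btg2, Sesn1, Gadd45a, Trp53inp1, Zmat3 and Fas, measured in progenitor cells of a mouse leukaemia in which an active Notch1 domain could be switched on. They were chosen by name, as all probe sets whose platform gene symbol is one of 10 listed genes. The 932 probe sets annotated with several symbols were not assigned to any gene. Of the 10 genes, 9 had probe sets under this rule, 21 probe sets in all, out of 45037 probe sets and 18193 named genes on the arrays. Trp53, the gene of p53 itself, had no probe set under this rule, and its level was not analysed here. Cdkn1a and the genes of the BCL2 family were left out of the members, and some of them appear among the other pathway genes below.

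RNA came from LGMP, a sorted bone marrow population that was lineage-negative, cKit+, Sca1-, YFP+, CD34+ and FcgRII/III+. The donor cKit+ cells carried MLL-AF9-IRES-YFP, which encodes the leukaemia fusion MLL-AF9 together with a yellow fluorescent protein. They were transplanted, 50000 per recipient with 250000 wild-type support marrow cells, into irradiated wild-type mice aged 12 weeks. The WT group (n = 3) had the genotype MLL-AF9, EF1αwt/wt and ROSAwt/CreERT2, and the N1-IC group (n = 3) had MLL-AF9, EF1αwt/lsl-N1-IC and ROSAwt/CreERT2, in which Cre removes a stop so that the EF1α locus can express the intracellular domain of Notch1. Both groups thus carried MLL-AF9 and the tamoxifen-dependent recombinase CreERT2 at ROSA, and recipients of both were given tamoxifen (0.2 mg per g, 2 injections) 4 weeks after transplantation. Cells were taken 6 days after the last injection. The labels give male for all 3 WT samples and female for all 3 N1-IC samples, so genotype and sex cannot be told apart. Of the 9 measured members none lies on a sex chromosome: they map to chromosomes 1, 3, 4, 6, 10, 11 and 19. This placement does not separate sex from genotype for them. The labels do not say how many mice stood behind a sample or that samples came from separate mice, so p-values measure only the spread between these samples, which may be technical.

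p53 is a transcription factor that is held at a low level in unstressed cells and accumulates after DNA damage, oncogene activity or ribosomal stress. Mdm2, a ubiquitin ligase, marks p53 for degradation, and its relative Mdm4 binds and blocks the activation domain of p53. Mdm2 is itself a p53 target, so the pair form a feedback loop. Other targets slow the cell cycle, repair DNA, limit mTOR signalling or prepare the cell for death, and in blood-forming cells p53 restrains stem and progenitor cells and is a barrier to leukaemia.

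The arrays were Affymetrix arrays with several probe sets for some genes, and all levels are log2 of the deposited intensity. A probe set's level reflects its own probes as well as its transcript, so levels are compared between arrays. A higher level in 1 probe set than in another is not read as more transcript. Differences between probe sets of 1 gene, and means of gene lists, are likewise compared only between arrays. The array medians lay at 5.63 to 5.67 log2 units. In a bulk sample fewer cells of a type and less RNA per cell cannot be told apart. The promyelocyte granule genes Mpo, Elane, Prtn3 and Ctsg lay at 13.59 to 14.11 log2 units on the 6 arrays, and the sort gate genes Kit, Cd34, Fcgr3 and Fcgr2b at 10.05 to 13.12, so markers of the labelled population were present in every sample. The means of the sort gate genes were all lower in N1-IC, from -0.003 for Kit to -0.72 ± 0.33 for Cd34 on the log2 scale, and Cd34 was lower on every N1-IC array (10.05 to 11.28) than on every WT array (11.33 to 11.69), with a limma adjusted p of 0.644. Ly6a, the gene of Sca1, was not analysed here. Some arrays stood apart. The list of late granulocyte genes, 10 measured of 11, averaged 7.25 log2 units in WT replicate 1, against 9.65 and 10.12 in the other WT arrays and 9.82 to 10.33 in N1-IC. By the mean all 10 were higher in N1-IC, beside 47.4% of all genes lower. Groups did not overlap for 1 of the 10 (10%), Mmp9, beside 8.32% of all genes higher in that way. Mmp9 was at 4.14, 7.36 and 7.01 in WT and at 8.59, 9.27 and 8.78 in N1-IC (limma adjusted p of 0.639). Erythroid and megakaryocyte genes, 8 measured of 10, averaged 8.58 in WT replicate 2, against 5.24 to 6.11 elsewhere. The erythroid genes Car1 (12.44), Ermap (10.97), Klf1 (10.04) and Gata1 (9.39) were high there, and Epor was at 6.13. The rest of the list did not set this array apart. The megakaryocyte gene Pf4 was at 9.09 there and at 8.75 in WT replicate 1. Itga2b (6.48) and Hba-a1 (4.07) lay within the range of the other arrays. Mast cell and basophil genes, 5 measured of 6, varied within both groups. Their list averaged 7.52, 9.15 and 6.45 in WT and 7.25, 8.80 and 8.41 in N1-IC. Of these genes Fcer1a ran from 2.5 in WT replicate 3 to 8.2 in WT replicate 2. The part of this spread in the members' values was not tested. Xist, the RNA of the inactive X chromosome, stood at 10.70 in WT replicate 2, labelled male. It was at 5.64 and 5.42 in the other WT arrays and at 12.73 to 12.82 in N1-IC. The Y-linked Eif2s3y was at 10.34 in WT replicate 2, against 11.31 and 11.26 in the other WT arrays and 2.94 to 3.46 in N1-IC. The Y-linked Kdm5d (6.88) and Uty (6.70) were also lower in WT replicate 2 than in the other WT arrays. In Xist WT replicate 2 goes against its label, and whether it holds material of another sample was not tested, so the WT means and the sex labels carry this doubt.

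**Figure D1:**
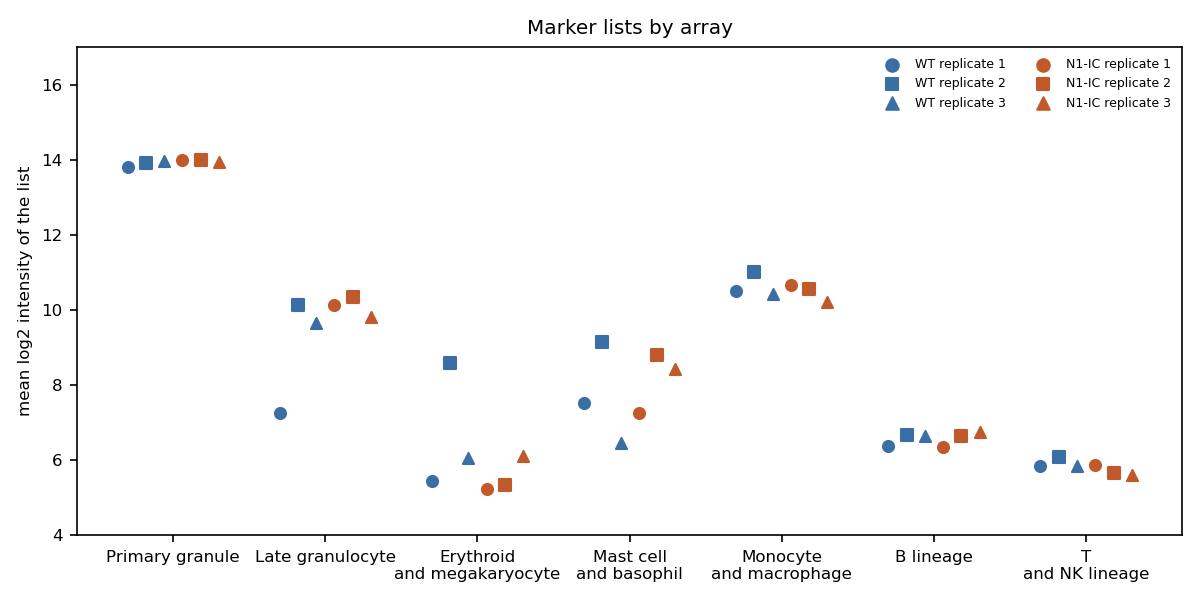
Mean log2 intensity of each marker list on each array (blue WT, orange N1-IC, 1 point per array, marker shape for the replicate number, not used as a pairing). WT replicate 1 is the low late granulocyte point at 7.25 and WT replicate 2 the high erythroid point at 8.58.

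Arrays of the 2 genotypes were compared to ask whether the genes that p53 controls, and those that control p53, differed after the Notch1 domain was switched on. None of the 21 member probe sets passed a limma adjusted p under 0.05, with a smallest adjusted p of 0.639. Over all 45037 probe sets, 4 passed (0.00888%), all lower in N1-IC. By brightest probe sets 1 of 18193 genes (0.0055%) passed, the Y-linked Eif2s3y, with a log2 fold change of -7.75 (limma adjusted p of 0.00198). The labels give male for WT and female for N1-IC, so that call cannot be told apart from sex. The same gene is the 0.0055% set beside the pathway lists below. At an unadjusted p under 0.05 there were 2 of 21 member probe sets, 1 of Btg2 and 1 of Mdm2, both lower in N1-IC, against 7.7% of all probe sets. The groups did not overlap for 3 of 21 member probe sets, again those of Btg2 and Mdm2 and 1 of Ccng1, which was higher in N1-IC. In all probe sets 7.4% were higher and 7.02% lower without overlap. The 3 are 14.3% of the members' probe sets beside 14.4% of all, so the members separated the groups no more often than the arrays did in general. By the mean, 9 of the 21 were higher and 12 lower in N1-IC, beside 50.5% and 49.5% of all probe sets, with a median log2 fold change of -0.06 beside 0.0025 over all probe sets. This split is not stable: it was 11 higher and 10 lower after a further quantile normalization, 12 higher and 9 lower without WT replicate 1, and 10 higher and 11 lower without WT replicate 2, with 0 probe sets called in each of these fits. The median size of the difference, without its sign, was 0.20 on the log2 scale for the members and 0.14 for all probe sets. Probe sets of 1 gene share their target, so the 21 are not independent.

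**Figure D2:**
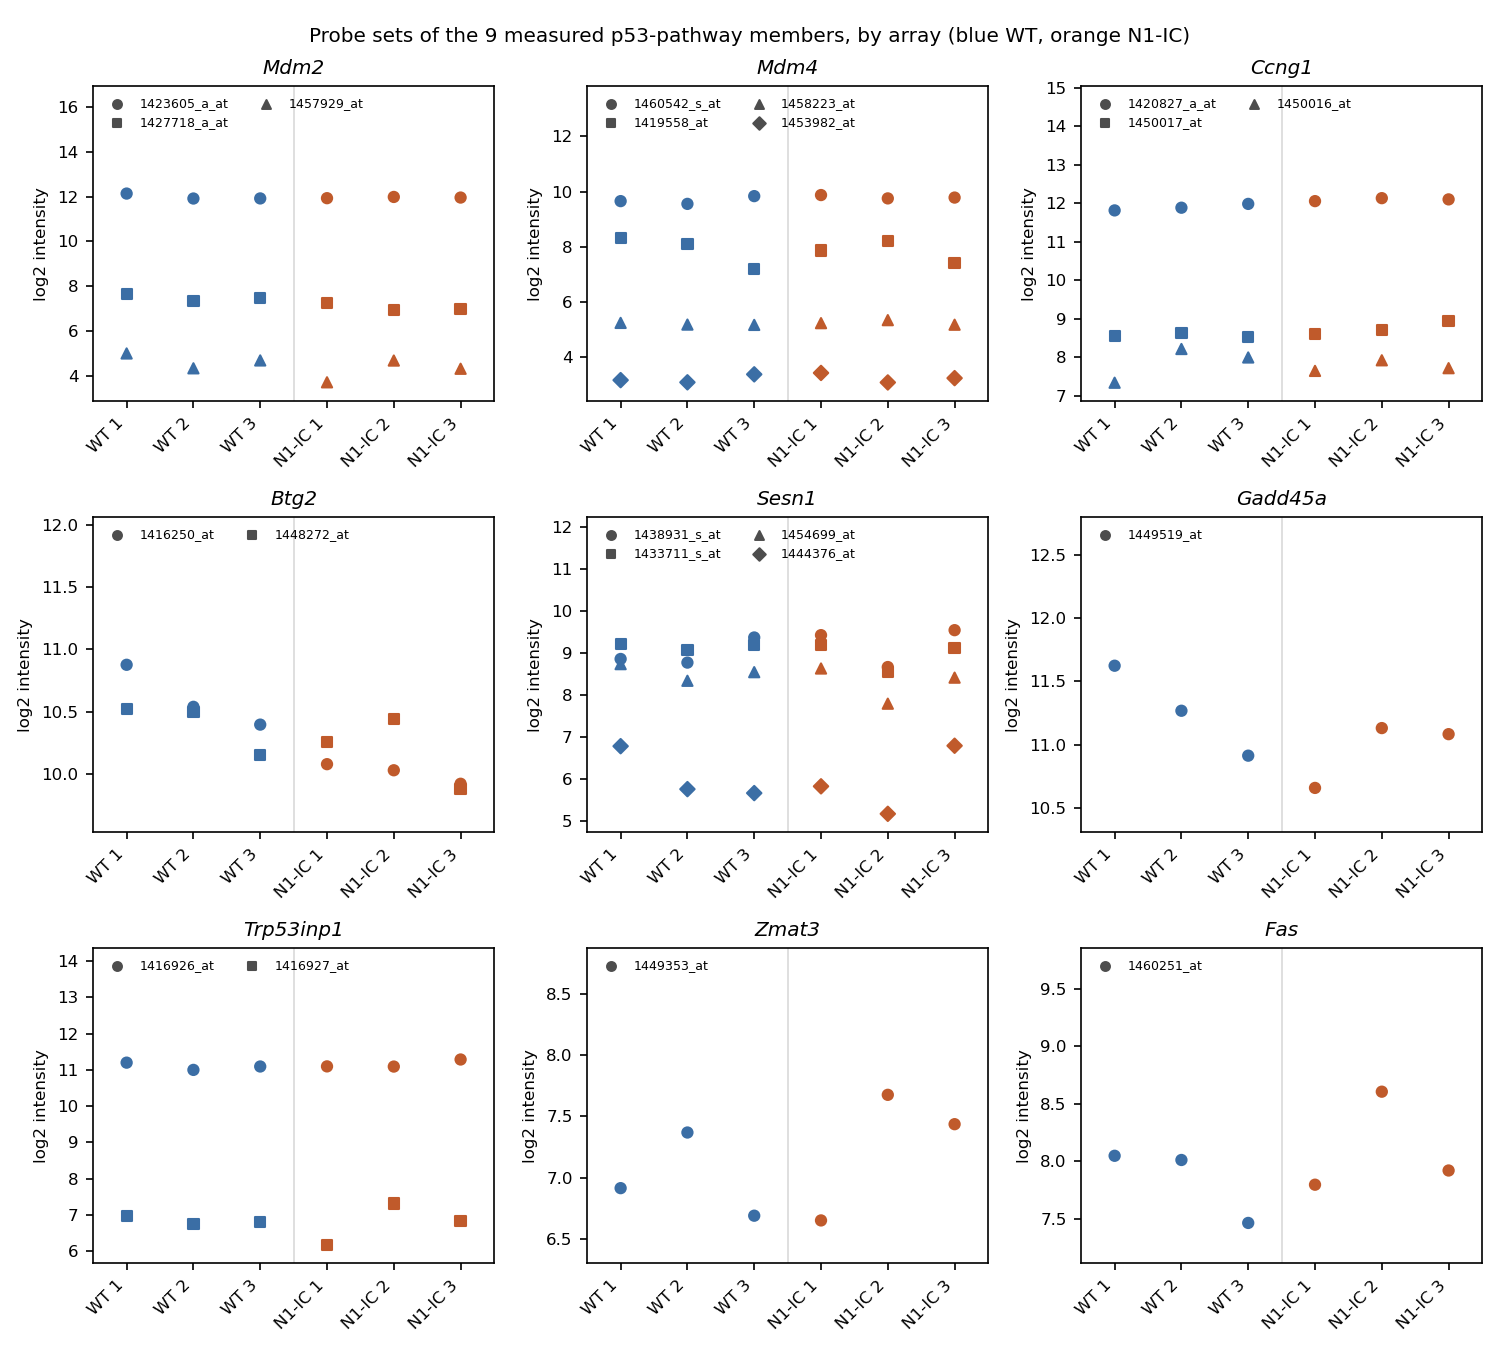
Log2 intensity of every probe set of the 9 measured members on each of the 6 arrays (blue WT, orange N1-IC, a marker shape for each probe set, axes differ between panels). The brightest Btg2 probe set is at 10.39 or more on the WT arrays and at 10.08 or less on the N1-IC arrays, while the other Btg2 probe set overlaps.

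Upstream sequence is shown for the 3 members with a probe set that separated the groups, and for Gadd45a, whose window holds a self-complementary match. p53 binds as a tetramer to a pair of half-sites, so each window was searched on both strands for the p53 half-site consensus, for a pair of such half-sites with at most 13 bases between them, for GTGGGAA, the core bound by the Notch partner RBPJ, and for TGACGTCA, the cyclic AMP response element. The windows are the 250 bases before the annotated RefSeq start, in assembly GRCm38.p6, all 4 genes lying on the minus strand. Capitals mark the p53 half-site in Mdm2, Ccng1 and Gadd45a and the cyclic AMP response element in Btg2.
Mdm2, chr10:117710759-117711008: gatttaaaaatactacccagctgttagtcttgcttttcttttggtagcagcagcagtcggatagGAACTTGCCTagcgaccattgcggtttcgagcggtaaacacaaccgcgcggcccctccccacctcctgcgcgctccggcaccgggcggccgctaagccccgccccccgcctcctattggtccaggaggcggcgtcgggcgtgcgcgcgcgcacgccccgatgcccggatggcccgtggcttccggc
Ccng1, chr11:40755287-40755536: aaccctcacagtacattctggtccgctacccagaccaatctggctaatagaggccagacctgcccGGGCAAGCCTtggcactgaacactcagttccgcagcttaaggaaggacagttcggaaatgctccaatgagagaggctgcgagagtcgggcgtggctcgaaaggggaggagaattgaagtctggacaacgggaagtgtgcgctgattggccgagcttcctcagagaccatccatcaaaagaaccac
Btg2, chr1:134079156-134079405: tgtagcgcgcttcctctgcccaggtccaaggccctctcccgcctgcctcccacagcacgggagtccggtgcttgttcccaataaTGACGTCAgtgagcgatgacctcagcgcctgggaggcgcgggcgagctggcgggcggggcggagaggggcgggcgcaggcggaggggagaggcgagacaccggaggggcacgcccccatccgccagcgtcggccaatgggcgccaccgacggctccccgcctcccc
Gadd45a, chr6:67037408-67037657: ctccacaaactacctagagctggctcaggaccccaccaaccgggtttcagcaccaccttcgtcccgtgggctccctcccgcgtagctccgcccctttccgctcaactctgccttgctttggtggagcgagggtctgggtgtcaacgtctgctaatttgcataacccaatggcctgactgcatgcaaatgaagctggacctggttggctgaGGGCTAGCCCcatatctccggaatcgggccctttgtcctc

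The half-sites of Mdm2 and Ccng1 began 186 and 185 bases before the start, and that of Gadd45a 40 bases before it. Windows were found for 8 of the 10 listed genes, Mdm4 and Sesn1 having 2 each. A half-site was present in 5 of these 10 windows, and in 7.13% of the 32851 windows of all genes. The other 2 were in the windows of Trp53 and of 1 of the Sesn1 starts. A full pair of half-sites was in none of the 10 windows and in 0.0639% of all windows. GTGGGAA was in 1 window, that of the other Sesn1 start, and in 5.42% of all. Of the 10 windows only that of Btg2 held TGACGTCA, beginning 166 bases before the start, where 1.55% of all windows hold it. The listed genes were picked as p53 targets or regulators, so these shares test nothing. The well-known p53 sites of Mdm2 and Gadd45a lie in introns, outside these windows, and a match of letters is a description, not a site in use.

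Of the regulators of p53, Mdm2 was measured by 3 probe sets, and they did not give the same picture. The brightest, meaning the probe set of a gene with the highest mean over the 6 arrays, was 1423605_a_at. Its log2 levels were 12.14, 11.92 and 11.92 for WT and 11.93, 11.99 and 11.96 for N1-IC. WT replicate 1 was the highest array and the others lay within the same narrow span, so the groups overlapped. The log2 fold change was -0.03 ± 0.10 (standard error), with a 95% interval from -0.28 to 0.21 and a limma adjusted p of 0.933. By this probe set a change of Mdm2 as large as 1 log2 unit, a doubling or halving, lies outside the interval.

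The Mdm2 probe set 1427718_a_at had 7.66, 7.34 and 7.49 in WT and 7.24, 6.96 and 7.00 in N1-IC. Every N1-IC array was below every WT array, with a gap of 0.098 between N1-IC replicate 1 and WT replicate 2. The means were 7.50 ± 0.16 in WT and 7.07 ± 0.15 in N1-IC (SD, n = 3), for a log2 fold change of -0.43 ± 0.13 with an interval from -0.75 to -0.11. It did not pass over all probe sets (limma unadjusted p of 0.0164, adjusted p of 0.639). The third Mdm2 probe set, 1457929_at, had 5.00, 4.34 and 4.69 in WT and 3.72, 4.69 and 4.32 in N1-IC. It lay below the median of every array and overlapped between the groups, with a log2 fold change of -0.44 ± 0.29 (adjusted p = 0.697). It was -0.17 without N1-IC replicate 1, -0.28 without WT replicate 1 and -0.66 without N1-IC replicate 2. No detection calls entered the analysis, and such low values may or may not exceed background.

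Probe sets of 1 gene can also be set against each other on the same array, which cancels any factor common to the whole array but not a normalization that acts by intensity. The level of 1427718_a_at minus that of the brightest Mdm2 probe set was -4.48, -4.58 and -4.43 in WT and -4.69, -5.03 and -4.96 in N1-IC. The N1-IC differences were all lower than the WT differences, while the 95% intervals of the probe sets overlap. Among the members, 6 genes had more than 1 probe set, which gives 12 such differences, and 2 of the 12 separated the groups, beside 14.7% of 16752 such differences over all genes, a like share. The other was that of Btg2. Which Mdm2 transcripts each probe set covers was not analysed here.

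Mdm4 was measured by 4 probe sets, and all overlapped between the groups. The brightest, 1460542_s_at, had 9.66, 9.56 and 9.84 in WT and 9.88, 9.75 and 9.78 in N1-IC. N1-IC replicate 1 was the highest array, just above WT replicate 3, and the other N1-IC arrays lay inside the WT range, with a log2 fold change of 0.12 ± 0.11, an interval from -0.14 to 0.39 and an adjusted p of 0.752. Probe set 1419558_at varied most within the groups. It had 8.33, 8.12 and 7.21 in WT and 7.87, 8.20 and 7.41 in N1-IC, with the array numbered 3 the lowest of each group. Its log2 fold change of -0.06 ± 0.34 has an interval from -0.88 to 0.77, and without WT replicate 1, WT replicate 2 or N1-IC replicate 3 its sign turned. The remaining Mdm4 probe sets lay below the median of every array, at 5.18 to 5.35 and at 3.10 to 3.44, with log2 fold changes of 0.05 and 0.04.

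Among the targets that act on the cell cycle, Btg2 encodes an antiproliferative protein of the BTG/TOB family that recruits mRNA deadenylases. It had the largest difference of the 21 probe sets. Its brightest probe set, 1416250_at, had 10.88, 10.54 and 10.39 in WT and 10.08, 10.03 and 9.92 in N1-IC. All 3 N1-IC arrays lay below all 3 WT arrays, with 0.32 between the nearest arrays of the groups. The means were 10.60 ± 0.25 in WT and 10.01 ± 0.08 in N1-IC (SD, n = 3). The log2 fold change was -0.60 ± 0.15 with an interval from -0.95 to -0.24, a level in N1-IC of 0.662 times that in WT. The limma unadjusted p was 0.00608 and the adjusted p 0.639, so it did not pass. Its adjusted p was lowest, at 0.312, without WT replicate 3. WT replicate 1 was the highest array here and also the one with the low late granulocyte list. Without it the log2 fold change was -0.46.

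The other Btg2 probe set, 1448272_at, had 10.52, 10.49 and 10.15 in WT and 10.26, 10.44 and 9.88 in N1-IC. The groups overlapped, since N1-IC replicates 1 and 2 lay above WT replicate 3, and the log2 fold change was -0.20 ± 0.18 with an interval from -0.64 to 0.25 (adjusted p = 0.759). It was -0.04 without N1-IC replicate 3, -0.13 without WT replicate 1, and -0.32 without WT replicate 3 or N1-IC replicate 2. Its level minus that of the brightest was -0.36, -0.04 and -0.25 in WT and 0.18, 0.41 and -0.04 in N1-IC. These differences separated the groups by 0.0049, between WT replicate 2 and N1-IC replicate 3. Both probe sets gave a lower mean in N1-IC, and their intervals overlap.

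Ccng1 encodes cyclin G1, which binds a phosphatase that acts on Mdm2. Its brightest probe set, 1420827_a_at, had 11.82, 11.89 and 11.99 in WT and 12.06, 12.14 and 12.10 in N1-IC. Every N1-IC array was above every WT array, though the whole range over the 6 arrays was 0.32. The means were 11.90 ± 0.08 and 12.10 ± 0.04 (SD, n = 3), a log2 fold change of 0.20 ± 0.09 with an interval from -0.02 to 0.43 (limma unadjusted p of 0.0706, adjusted p of 0.644). Ccng1 probe set 1450017_at had 8.55, 8.63 and 8.52 in WT and 8.61, 8.72 and 8.95 in N1-IC, nearly the same log2 fold change of 0.20 ± 0.12, but with N1-IC replicate 1 inside the WT range, and it was 0.099 without N1-IC replicate 3, the highest array. The last, 1450016_at, ranged from 7.34 in WT replicate 1 to 8.22 in WT replicate 2, wider than the N1-IC range of 7.65 to 7.93, with a log2 fold change of -0.09 ± 0.24.

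Gadd45a encodes a stress protein that binds PCNA and Cdk1 and activates p38 and JNK signalling. Its single probe set had 11.62, 11.27 and 10.91 in WT and 10.66, 11.13 and 11.08 in N1-IC. The N1-IC mean was lower, but WT replicate 3 lay below N1-IC replicates 2 and 3. The log2 fold change was -0.31 ± 0.22 with an interval from -0.85 to 0.22 (adjusted p = 0.708). WT replicate 1 was again the highest array, and the log2 fold change was -0.13 without it, -0.16 without N1-IC replicate 1 and -0.49 with WT replicate 3 left out.

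Sesn1 encodes sestrin 1, an inhibitor of mTORC1 that is induced by p53. Its 4 probe sets all overlapped between the groups and differed in sign. The brightest, 1438931_s_at, had 8.87, 8.78 and 9.38 in WT and 9.43, 8.67 and 9.55 in N1-IC, which gave a log2 fold change of 0.21 ± 0.28. Single arrays moved it from 0.046 without N1-IC replicate 3 to 0.49 without N1-IC replicate 2, with 0.10 without WT replicate 2 or N1-IC replicate 1, 0.14 without WT replicate 1 and 0.40 without WT replicate 3. The next, 1433711_s_at, had 9.21, 9.09 and 9.19 in WT and 9.19, 8.55 and 9.12 in N1-IC, for a log2 fold change of -0.21 ± 0.18. Probe set 1454699_at had 8.74, 8.35 and 8.55 in WT and 8.64, 7.80 and 8.42 in N1-IC, for a log2 fold change of -0.26 ± 0.24. In all 4 probe sets N1-IC replicate 2 was the lowest of the 6 arrays. Without that array the log2 fold changes of 1433711_s_at and 1454699_at were -0.0069 and -0.017, so their lower means rest on it. The dimmest, 1444376_at, ranged from 5.18 to 6.80 with WT replicate 1 at 6.79 and N1-IC replicate 3 at 6.80, and its interval from -1.31 to 1.03 was the widest of the 21.

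Trp53inp1 encodes a nuclear protein that helps p53 switch on death genes and also acts in autophagy. Its brightest probe set, 1416926_at, had 11.20, 11.00 and 11.09 in WT and 11.10, 11.09 and 11.29 in N1-IC, for a log2 fold change of 0.06 ± 0.11 with an interval from -0.20 to 0.32 (adjusted p = 0.874). The groups overlapped in part, with WT replicate 2 the lowest and N1-IC replicate 3 the highest array. Its other probe set, 1416927_at, had 6.96, 6.74 and 6.81 in WT, a tight group, and 6.17, 7.31 and 6.83 in N1-IC, where replicates 1 and 2 lay on opposite sides of the WT range. Its log2 fold change was -0.06 ± 0.28.

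Zmat3, which encodes an RNA-binding protein that controls splicing and mRNA stability downstream of p53, had 6.91, 7.37 and 6.69 in WT and 6.65, 7.68 and 7.44 in N1-IC. N1-IC replicate 1 was the lowest array and N1-IC replicate 2 the highest, so the N1-IC group enclosed the WT group. The log2 fold change was 0.26 ± 0.31 with an interval from -0.48 to 1.01 (adjusted p = 0.804). Single arrays moved it widely, from 0.053 without N1-IC replicate 2 to 0.57 without N1-IC replicate 1, and leaving out N1-IC replicate 3, WT replicate 3 or WT replicate 2 gave 0.17, 0.11 and 0.45.

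Fas encodes the death receptor CD95, the member that acts at the cell surface. It had 8.05, 8.01 and 7.46 in WT and 7.80, 8.60 and 7.92 in N1-IC. The groups overlapped, with WT replicate 3 the lowest and N1-IC replicate 2 the highest array. The log2 fold change was 0.27 ± 0.27 with an interval from -0.38 to 0.91 (adjusted p = 0.774). It was 0.017 without N1-IC replicate 2 and 0.078 without WT replicate 3, so the higher mean rests on these arrays. Among the brightest probe sets of the 9 members that of Fas had the widest range over the 6 arrays, at 1.14 log2 units. The genes whose levels followed it most closely, by the mean absolute difference of values centred on each gene's mean over the 6 arrays, were Agpat3 (0.0418), Snrk (0.0735) and Gtdc1 (0.0798), where the median over all genes was 0.303. They were picked from 18193 genes, and closeness over 6 arrays is a description.

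**Figure D3:**
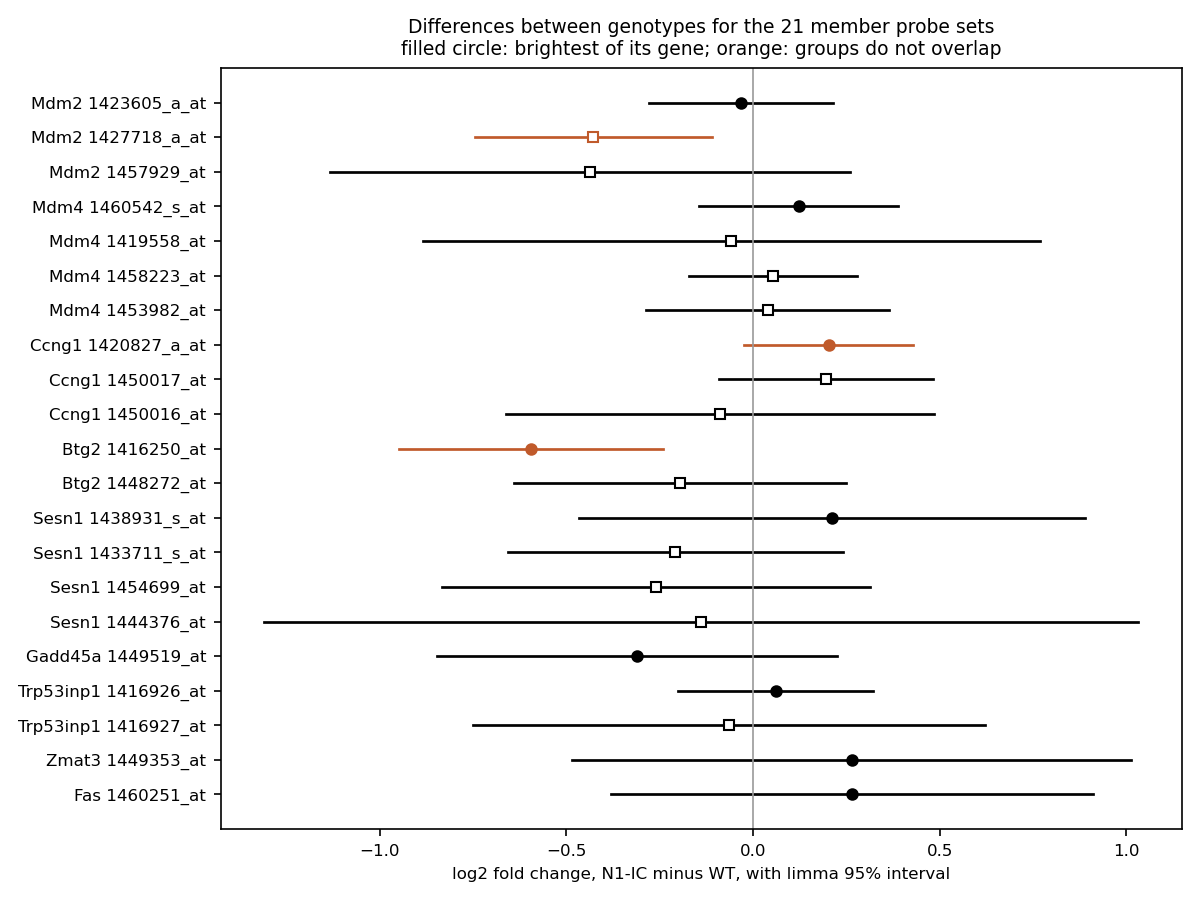
Log2 fold change, N1-IC minus WT, of each of the 21 member probe sets with its limma 95% interval (filled circles the brightest of each gene, open squares the others, orange where the groups do not overlap). Of the 21 intervals 19 include 0, and those of Btg2 1416250_at and Mdm2 1427718_a_at lie below it.

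The intervals show how large a difference the 6 arrays could hide. For 18 of the 21 member probe sets (85.7%) the 95% interval lay wholly inside 1 log2 unit in either direction, beside 84.7% of all probe sets. The exceptions were Mdm2 1457929_at, Sesn1 1444376_at and Zmat3. These are single intervals, not adjusted for their number. Within the groups, the median SD of the member probe sets was 0.20 in WT and 0.26 in N1-IC, beside 0.18 and 0.15 over all probe sets.

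The arrays themselves contributed unequally. WT replicate 1 was the highest of the 6 arrays for 9 of the 21 member probe sets, beside 21.3% of all probe sets, and WT replicate 3 for 0 of them, beside 12.2%. The 9 included all 3 probe sets of Mdm2, both of Btg2, that of Gadd45a, 2 of Sesn1 and 1 of Mdm4. N1-IC replicate 2 was the highest for 5 and the lowest for 6, beside 17.8% and 16.9% of all probe sets. The 6 include every probe set of Sesn1, which share their target. WT replicate 1 is also the array with the low late granulocyte mean of 7.25, and the part of that difference in the members' values was not tested.

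Other genes of the pathway were taken from 3 lists. Of 22 further p53 effector genes 21 were measured and none passed, beside 0.0055% of all genes, with 9 higher and 12 lower in N1-IC and a median log2 fold change of -0.007, beside 0.012 over all 18193 genes by their brightest probe sets, of which 47.4% were lower. Groups did not overlap for 2 of the 21, both lower in N1-IC, beside 6.52% of all genes lower in that way, and 1 had an unadjusted p under 0.05, beside 7.22% of all genes. Ddit4, an mTOR inhibitor gene induced by stress, was at 12.83, 12.67 and 12.73 in WT and at 12.20, 12.38 and 12.61 in N1-IC, below every WT array, with a log2 fold change of -0.35 ± 0.13 (limma unadjusted p of 0.0365, adjusted p of 0.639). Phlda3, an inhibitor of Akt, was the other, between 4.81 and 4.88 in WT and between 4.36 and 4.80 in N1-IC, below the median of every array; it falls outside the naming rule and was added because it was 1 of only 2.

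Cdkn1a, the gene of the cell cycle inhibitor p21, differed by -0.47 ± 0.21 on the log2 scale (adjusted p = 0.644). Its N1-IC values of 8.48, 9.01 and 8.70 overlapped the WT values of 9.22, 9.50 and 8.86, with N1-IC replicate 2 above WT replicate 3. The kinase genes Plk3 and Plk2 had -0.46 ± 0.21 and -0.61 ± 0.31, with overlapping groups and limma adjusted p values of 0.644 and 0.654. WT replicate 1 was the highest array for both. Plk3 was at 6.81 there, against 6.53 and 6.01 in the other WT arrays, and Plk2 at 8.24, against 7.40 and 7.39. Bax was not analysed here.

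Of 16 upstream regulators of p53 15 were measured, none passed, and 0 had groups that did not overlap, beside 14.8% of all genes. At an unadjusted limma p under 0.05 there were 0 as well, beside 7.22% of all genes. By the mean 10 were higher and 5 lower, beside 47.4% of all genes lower, and 7 were higher and 8 lower without WT replicate 1, with a median log2 fold change over all 6 arrays of 0.017. The DNA damage kinase gene Chek2 had 0.23 ± 0.14, the kinase gene Hipk2 -0.21 ± 0.14, the ubiquitin ligase gene Cop1 -0.26 ± 0.19 and the repair scaffold gene Trp53bp1 0.15 ± 0.15, with adjusted p values of 0.679 to 0.773. Cdkn2a, whose Arf product inhibits Mdm2, was between 4.32 and 4.85 in WT and between 4.58 and 5.13 in N1-IC, below the median of every array, with a log2 fold change of 0.16 ± 0.21.

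Relatives of the members and of p53 gave 10 measured genes of 11, none past the threshold and 1 (10%) at an unadjusted limma p under 0.05, beside 0.0055% and 7.22% of all genes. By the mean 4 were higher and 6 lower, but 7 were higher and 3 lower without WT replicate 1 and also without N1-IC replicate 3. Groups did not overlap for Btg1, higher in N1-IC (8.32% of all genes), and for Sesn3, lower in N1-IC (6.52%). Sesn3, the third sestrin gene, was at 7.74, 7.56 and 7.21 in WT and at 6.78, 5.82 and 7.08 in N1-IC, for a log2 fold change of -0.95 ± 0.34 (limma unadjusted p of 0.0308, adjusted p of 0.639). Sesn2 had -0.40 ± 0.26 with overlapping groups, and it is also among the effectors. Btg1 was between 12.53 and 12.67 in WT and between 12.72 and 12.76 in N1-IC, for a log2 fold change of 0.14 ± 0.09, opposite in sign to Btg2. Tob1, of the same family, had 0.32 ± 0.20 with overlapping groups. The p53 relatives Trp63 and Trp73, named outside the rule after their values were seen, lay near the array medians, at 5.24 to 5.77 and 5.20 to 5.74, with log2 fold changes of -0.02 each.

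**Figure D4:**
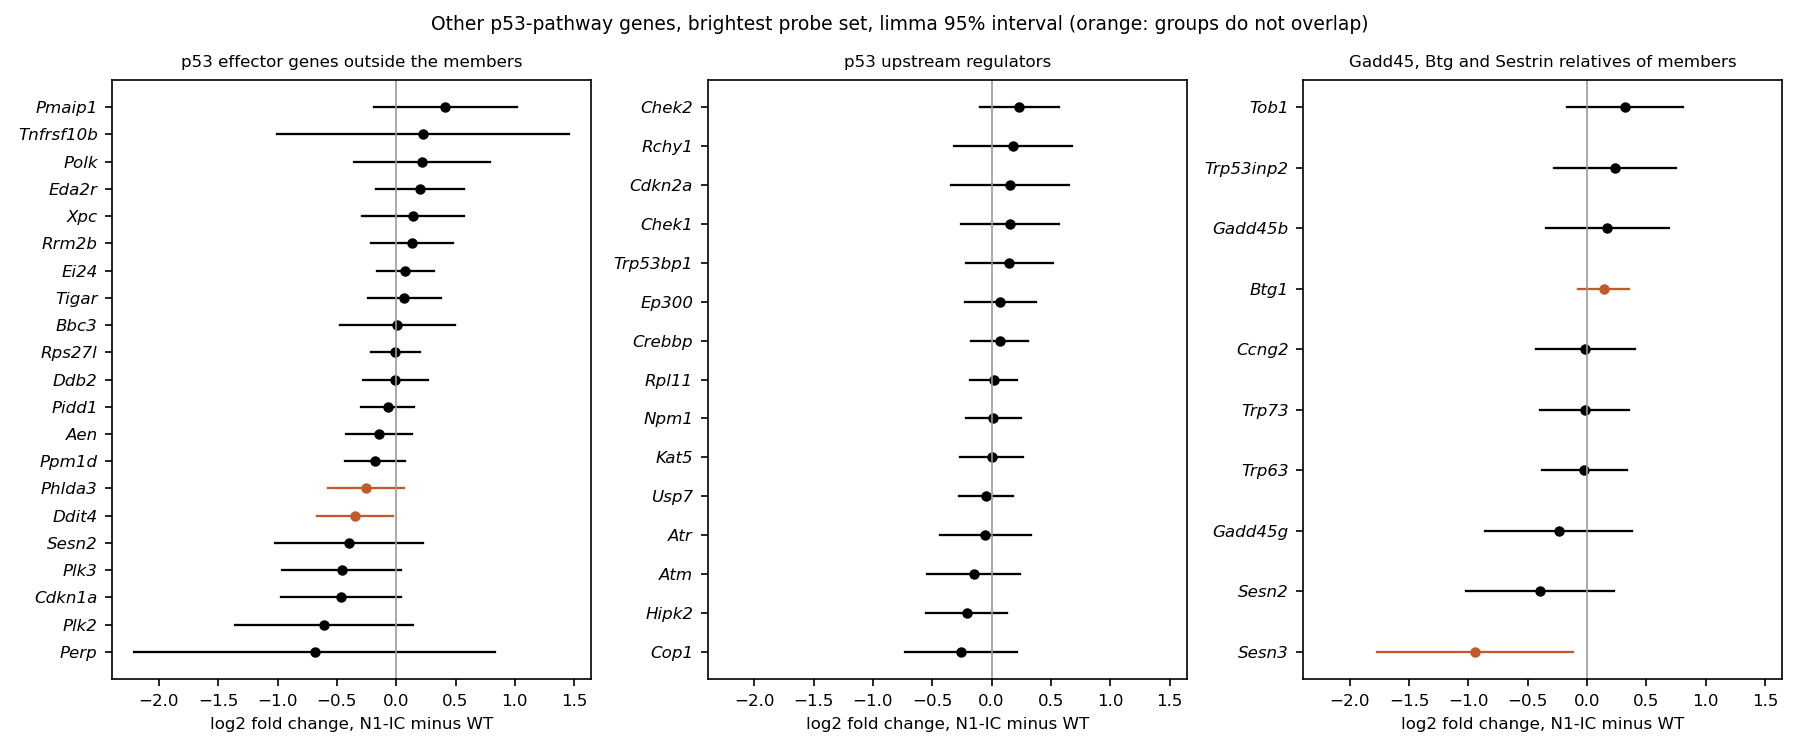
Log2 fold change, N1-IC minus WT, of the other p53-pathway genes by their brightest probe sets with limma 95% intervals, 1 panel per list (orange where the groups do not overlap). All 15 upstream regulators have intervals that include 0, and only Ddit4 and Sesn3 have intervals that lie below it.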

How the data were processed

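Expression was measured on 6 Affymetrix arrays, 3 WT and 3 N1-IC, from 5 ng of amplified RNA per the labels' protocols. The authors deposited intensities on a linear scale, from 3.6 to 24044, and the submitters' processing notes name RMA (background correction, quantile normalization, probe summary), with no version. Such scaling removes differences in total signal, so changes are relative. The number of arrays limits the precision. Here log2 was taken with no offset, 64 control probe sets were left out, and 45037 probe sets were fitted with lmFit and eBayes (limma 3.58.1, R 4.3.3), with Benjamini-Hochberg adjustment over all of them and a threshold of 0.05. The fit was also run on simulated data, with noise drawn independently for each probe set and spreads taken from the fit itself. Such a run checks the calculation and cannot show how the fit behaves on arrays that stand apart. The platform annotation pairs 34958 of the 45101 probe sets with 1 symbol, 932 with several and 9211 with none. Symbols were updated through Entrez identifiers and a RefSeq table of GRCm38.p6 (34741 matched), and promoter windows are RefSeq's.

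Named were all members, the 4 genes with the smallest p of each pathway list, Cdkn1a, Cdkn2a and Bax (exceptions are marked in the text), and the 3 genes closest to the most variable member. Members and lists were chosen with earlier results of these data known. Replicate numbers were not used to pair the arrays. Deviations from group means correlated at 0.013, 0.0396 and -0.0769 for equal numbers, and at -0.0725 to 0.0707 for unequal numbers. Values this near 0 for both cannot show whether arrays of equal number shared a batch.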

Additional observations from a re-analysis of the deposited data

How the results depend on the processing

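The count of 0 called member probe sets held in all 11 alternatives with 6 arrays and all 6 fits with an array left out, with smallest adjusted p values of 0.312 to 0.857. The count over all probe sets was 4, against 7 with a mean-variance trend, 2 with the replicate block, 10 at a threshold of 0.1 and 3 to 8 without single arrays. Of 18193 genes, 1 was called with the brightest probe set per gene. With a gene's probe sets averaged, 5 genes were called, 2 higher and 3 lower in N1-IC. The block changed no member's call. Of the 21 member fold changes 13 kept their direction in each fit that was scored for them. These were 7 to 10 alternatives per probe set, since gene-level and filtered fits hold fewer, and the 6 fits with an array left out. The fit on a gene's averaged probe sets was scored under its brightest probe set, although it measures all probe sets of the gene. Signs turned to 0.0134 (Mdm4 1419558_at) and 0.00324 (Trp53inp1 1416927_at) after further quantile normalization, and to -0.0987 (Sesn1) and -0.00189 (Trp53inp1) when probe sets were averaged per gene. The cause was not tested. Without single arrays the ranges that crossed 0 were -0.0696 to 0.0409 (Mdm2 1423605_a_at), -0.394 to 0.162 (Mdm4 1419558_at), -0.0493 to 0.123 (Mdm4 1453982_at), -0.343 to 0.0946 (Ccng1 1450016_at), -0.569 to 0.24 (Sesn1 1444376_at), -0.00326 to 0.112 (Trp53inp1 1416926_at) and -0.335 to 0.234 (Trp53inp1 1416927_at). The list medians ran from -0.11 to -0.0163 (effectors), -0.00184 to 0.0612 (upstream regulators) and -0.0662 to 0.108 (relatives).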
